A study of Mus musculus with 6 samples.

Results

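The 4 mouse tropomyosin genes, Tpm1, Tpm2, Tpm3 and Tpm4, were described transcript by transcript in sciatic nerve after sham surgery. Every transcript that the deposited tables list under 1 of these gene symbols was kept, which gave 47 of 140789 transcripts and 4 of 54309 genes. Both groups were C57BL/6J mice of 6 to 8 weeks with no engineered allele in the labels, and both had sham surgery. The left sciatic nerve was laid open at mid-thigh under isoflurane but not cut, the overlying muscle was sutured, and nerve tissue was taken 24 h later. Each sample was a pool of 2 mice, with 3 female pools and 3 male pools, so the replicates were separate animals. Axotomized nerves were not analysed here. Such tissue holds Schwann cells, fibroblasts, perineurial, endothelial, vascular smooth muscle and immune cells, and in bulk samples fewer cells of a type and less RNA per cell cannot be told apart.

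Tropomyosins are coiled-coil proteins that lie end to end along actin filaments and set which motors and regulators can reach the filament. Muscle forms work with troponin to switch contraction on and off with calcium, whereas nonmuscle forms mark different actin filament populations in the cytoskeleton. Each gene makes several proteins by choosing between alternative start exons, internal exons and end exons, and the end exon shapes the contact with the next tropomyosin and with troponin.

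Each of the 47 transcripts was found by its identifier in GENCODE M39 (GRCm39), where 31 have coding sequence. Exons were named by their place in each gene. Transcripts that begin in exon 1a encode long proteins, 284 residues in most of them, and those that begin in exon 1b encode short ones, 248 residues in most of them. Exon 6 comes as 6a or 6b, except in Tpm4, which has 1 form. The last coding exon is 9a, the striated-muscle type, or an exon further downstream, of which 9d is the most distal. Tpm1 lies at chr9:66929870-66956953 on the minus strand, Tpm2 at chr4:43514697-43524949 on the minus strand, Tpm3 at chr3:89979949-90008226 on the plus strand and Tpm4 at chr8:72884018-72906987 on the plus strand.

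The coding parts of the end exons are shown because the choice between them, with the start exon, defines the transcript classes compared here. They were read from GRCm39, 5′ to 3′ on the gene's strand. Capitals mark bases that differ from the other end exon of the same gene at the same position, counted from the first base of the exon without gaps, or, for Tpm4, from Tpm3 exon 9d. In Tpm1 and Tpm3, exon 9a has 79 coding bases and exon 9d has 80. The last base of exon 9d there is a capital without a partner base and was left out of the percentages.
Tpm1 exon 9a, chr9:66936946-66937024: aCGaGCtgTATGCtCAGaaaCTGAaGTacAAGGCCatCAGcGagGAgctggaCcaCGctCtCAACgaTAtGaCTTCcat
Tpm1 exon 9d, chr9:66930644-66930723: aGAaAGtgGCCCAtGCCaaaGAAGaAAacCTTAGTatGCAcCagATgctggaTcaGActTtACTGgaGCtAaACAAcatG
Tpm2 exon 9a, chr4:43515924-43516003: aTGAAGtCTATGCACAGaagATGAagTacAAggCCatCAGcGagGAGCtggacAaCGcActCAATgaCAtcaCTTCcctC
Tpm2 exon 9d, chr4:43514782-43514861: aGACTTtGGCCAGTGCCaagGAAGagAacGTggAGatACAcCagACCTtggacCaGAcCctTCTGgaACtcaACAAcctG
Tpm3 exon 9a, chr3:89998320-89998398: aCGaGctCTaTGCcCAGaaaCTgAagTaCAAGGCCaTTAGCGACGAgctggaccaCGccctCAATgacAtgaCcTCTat
Tpm3 exon 9d, chr3:90006835-90006914: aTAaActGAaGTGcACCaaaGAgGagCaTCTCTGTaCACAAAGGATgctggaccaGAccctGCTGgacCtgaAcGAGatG
Tpm4 exon 9d, chr8:72905586-72905665: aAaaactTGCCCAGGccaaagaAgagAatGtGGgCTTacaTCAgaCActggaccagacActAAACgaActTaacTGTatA
Within a gene, exons 9a and 9d shared 43.0% of bases in Tpm1, 41.2% in Tpm2 and 45.6% in Tpm3. Between genes, exon 9a was far more alike, with 82.3% to 88.6% of bases shared among Tpm1, Tpm2 and Tpm3. Exon 9d shared 58.8% to 71.2% of bases among the 4 genes.

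Levels are given in TPM, transcript abundance scaled to a fixed total in each pool. TPM divides by transcript length and so can be compared between transcripts and genes, as far as the annotated lengths are right. Read pairs assigned to transcripts numbered 55949876 to 78473057 per pool. Xist was at 119.5 to 124 TPM in female pools and at most 0.557 TPM in male pools, and Ddx3y was at 40.5 to 55.9 TPM in male pools and at most 0.540 TPM in female pools. All 14 peripheral nerve markers passed the filter, among them the myelin gene Pmp22 at 10218 to 12291 TPM. Pairs of pools of 1 sex differed by 22.0 to 60.6 chi-square units per gene, above the value of about 1 that sampling noise gives, so no pool was a copy of another. Female pool 2 stood apart by skeletal muscle transcripts. The summed level of 12 fast skeletal muscle markers was 3863 TPM there, against 27.8 and 84.0 TPM in the other female pools and 75.96 to 250.0 TPM in the male pools.

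Nonmuscle tropomyosins made up most of the tropomyosin RNA of the sham nerve. Tpm3, a source of short cytoskeletal tropomyosins, was at 407, 366 and 344 TPM in female pools 1, 2 and 3 and at 397, 375 and 365 TPM in male pools 1, 2 and 3. Tpm4, which encodes a short cytoskeletal form, was at 413, 348 and 342 TPM in female pools and 376, 371 and 349.7 TPM in male pools. Both genes were even across the 6 pools, and the sexes overlapped in each. Transcripts with the short start 1b gave 73.5% to 82.8% of all tropomyosin TPM in 5 pools and 53.4% in female pool 2.

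Tpm1, the gene of α-tropomyosin, was at 213, 568 and 196 TPM in female pools and 205, 190.2 and 165 TPM in male pools. Female pool 2 was 2.67-fold above the highest other pool, and the remaining pools of both sexes overlapped. Tpm2, the gene of β-tropomyosin, was lowest, at 46.6, 69.5 and 44.5 TPM in female pools and 60.7, 37.6 and 34.8 TPM in male pools. Female pool 2 and male pool 1 were the highest for Tpm2, and the sexes overlapped. By percentile of mean TPM among the 16310 genes tested, Tpm3 stood at 97.8, Tpm4 at 97.8, Tpm1 at 96.8 and Tpm2 at 79.6.

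**Figure D1:**
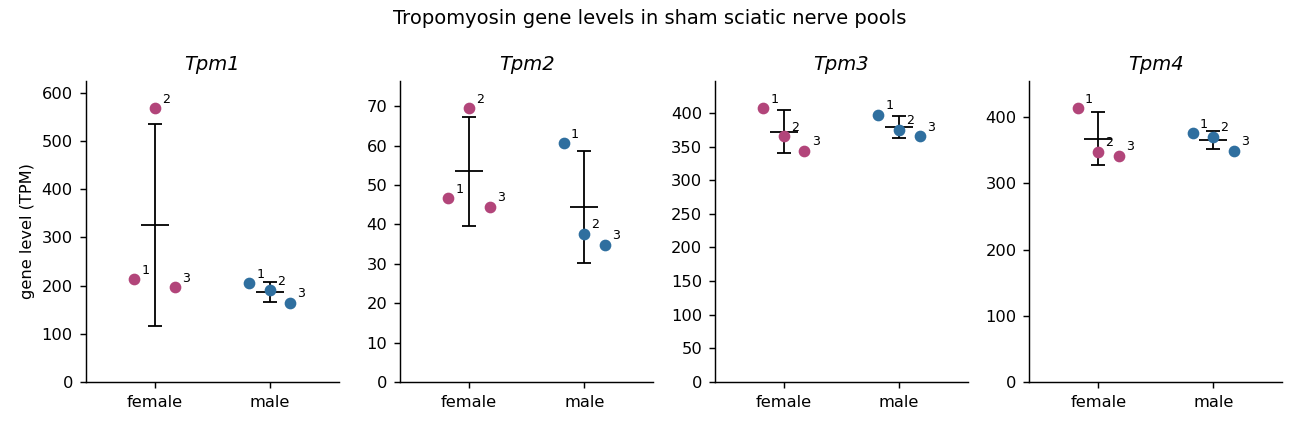
Gene level in TPM (vertical axes, from 0) of the 4 tropomyosin genes in female and male sham nerve pools; points are pools, numbered by replicate, and the bars are the mean and 1 SD of 3 pools. Tpm1 reached 568 TPM in female pool 2 against 165 to 213 TPM in the other pools, while Tpm3 and Tpm4 stayed between 342 and 413 TPM.

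The order Tpm3, Tpm4, Tpm1, Tpm2 was set on the median of the 5 pools other than female pool 2. Over all 6 pools the neighbours Tpm3 and Tpm4 differed by 0.04 ± 0.04 (SD) in log2 TPM, with Tpm3 higher in 5 of 6 pools, which did not pass an exact sign-flip permutation test (2-sided p = 0.125). Tpm4 exceeded Tpm1 by 0.66 ± 0.68 in log2 TPM in 5 of 6 pools, the exception being female pool 2 (exact permutation p = 0.0625). Tpm1 exceeded Tpm2 by 2.28 ± 0.42 in log2 TPM in 6 of 6 pools (exact permutation p = 0.03125, the smallest that 6 pools allow). Adjusted over the 3 pairs, these p-values were 0.125, 0.094 and 0.094, and the direction of each pair was read from the same pools.

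Tpm1 used the widest range of exons. Its most abundant transcript in all pools but 1 was Tpm1-211, a short form of 1607 bases with exons 1b, 6b and 9d. Tpm1-211 was at 70.3, 57.1 and 67.8 TPM in female pools and 68.3, 64.5 and 60.8 TPM in male pools, and it was lowest in female pool 2. Its share of the gene was 33.0% to 36.9% in 5 pools and 10.1% in female pool 2.

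Tpm1-205, of 1208 bases, joins exons 1a, 2b, 6b and 9a, the exon set of striated muscle α-tropomyosin. It was at 34.3, 411 and 32.7 TPM in female pools and 37.9, 35.4 and 26.7 TPM in male pools. Female pool 2 was 10.8-fold above the highest other pool, whereas the remaining 5 pools lay close together and the sexes overlapped among them. In female pool 2 this transcript alone gave 72.4% of Tpm1, against 16.1% to 18.6% elsewhere. With Tpm1-205 set aside, the rest of Tpm1 summed to 157 TPM in female pool 2, inside the range of 138 to 179 TPM in the other pools.

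Tpm1-201, of 1797 bases, carries the same coding exons as Tpm1-205 but ends differently: in the reference it reads through the 3′ boundary of exon 9a, while Tpm1-205 splices from 9a to a further exon. Tpm1-201 was at 11.5, 11.6 and 11.2 TPM in female pools and 12.0, 9.75 and 10.04 TPM in male pools. It was level across all 6 pools, and female pool 2 did not stand out. The 2 transcripts that share the striated coding exons thus differed in the pool that set Tpm1-205 apart.

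The other long Tpm1 transcripts end in 9d. Tpm1-216, with exons 2b and 6b, was at 27.9, 30.4 and 25.5 TPM in female pools and 22.3, 24.9 and 13.9 TPM in male pools. Its female and male pools did not overlap, though female pool 3 and male pool 2 were close. In normalized counts, 10.1% of all transcripts tested separated the sexes in this way. Tpm1-215, with exon 2a in place of 2b as in smooth muscle, was at 14.3 to 20.3 TPM over the 6 pools. Tpm1-213, with exons 2b and 6a, varied the most of these, from 5.22 TPM in male pool 3 to 19.1 TPM in female pool 1.

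Exon 6a was a minor choice in Tpm1, at 10.4% to 14.6% of the gene in 5 pools and 3.89% in female pool 2. Tpm1-212, the short form with 6a and 9d, was at 7.50 to 14.9 TPM. The summed level of all Tpm1 transcripts with exon 6a was 20.5 to 31.0 TPM, and female pool 1 was the only pool above 23.1 TPM. Exon 9c was used at 7.91 to 9.05 TPM in female pools and 7.82 to 8.35 TPM in male pools, all in Tpm1-209. For exon 9b, the short Tpm1-206 was at 1.12 to 2.92 TPM in 5 pools and listed at 0 in male pool 1, the only pool where the long Tpm1-207 was above 0, at 1.93 TPM. Of the 21 Tpm1 transcripts, 11 passed the filter on low counts and 4 were listed at 0 in all 6 pools.

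**Figure D2:**
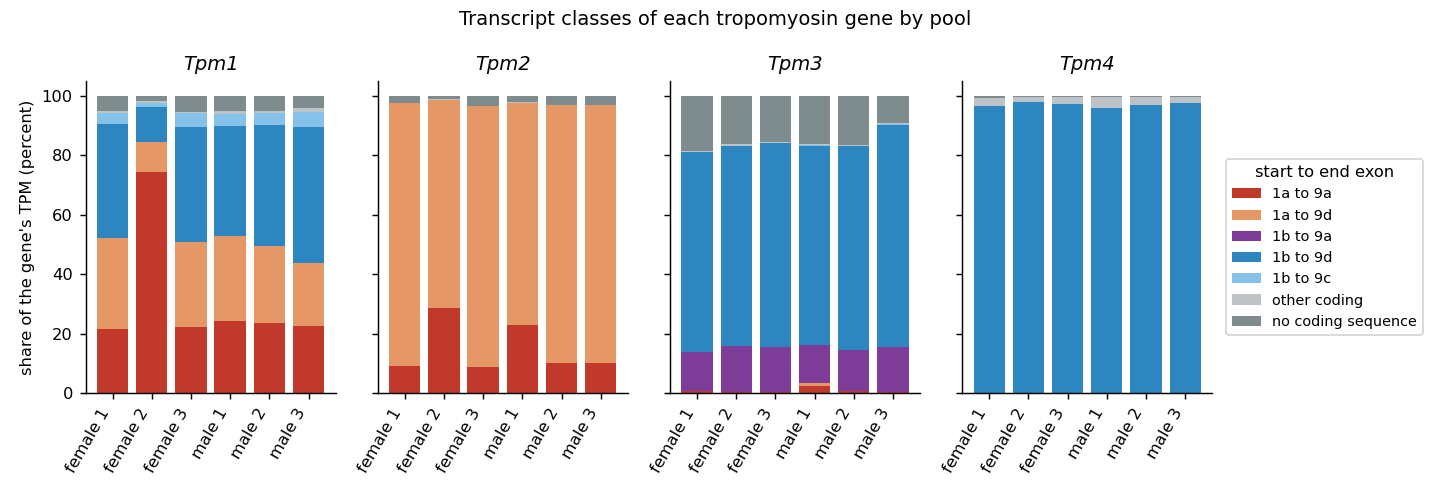
Share of each gene's TPM (percent, vertical axis) by transcript class, 1 bar per sham nerve pool; colours give the start and end exon of the class. The 1a to 9a class of Tpm1 filled 74.4% of the bar of female pool 2 and 21.5% to 24.3% of the others, that of Tpm2 was largest in female pool 2 (28.7%) and male pool 1 (23.0%), and Tpm4 was almost wholly 1b to 9d.

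Tpm2 has long forms only among its full-length transcripts. Tpm2-203, of 1164 bases with exons 6a and 9d, the type of smooth muscle and nonmuscle cells, was at 41.2, 48.5 and 39.2 TPM in female pools and 45.3, 32.6 and 30.3 TPM in male pools. It gave 69.8% to 88.4% of the gene, and the sexes overlapped through male pool 1. Tpm2-202, of 2098 bases with exons 6b and 9a, the skeletal muscle β-tropomyosin type, was at 2.48, 19.8 and 3.37 TPM in female pools and 13.2, 3.84 and 2.90 TPM in male pools.

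Female pool 2 and male pool 1 were set apart for Tpm2-202, and the other 4 pools lay between 2.48 and 3.84 TPM. Its share of Tpm2 was 28.5% in female pool 2 and 21.7% in male pool 1, against 5.31% to 10.2% elsewhere. By estimated counts, which are not divided by length, the share was 40.1% in female pool 2 and 32.0% in male pool 1. In the other pools it was 8.37% to 16.3% by counts. The estimated counts behind Tpm2-202 were 205 to 1728 per pool. Without it, the rest of Tpm2 was at 31.9 to 49.7 TPM, still highest in these pools, at 49.7 TPM in female pool 2 and 47.5 TPM in male pool 1. Of the 6 Tpm2 transcripts, 4 passed the filter.

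The mutually exclusive exons 6a and 6b of Tpm2 are shown because, with 9a and 9d, they tell these 2 transcripts apart. Capitals mark bases that differ between them.
Tpm2 exon 6a, chr4:43519003-43519078: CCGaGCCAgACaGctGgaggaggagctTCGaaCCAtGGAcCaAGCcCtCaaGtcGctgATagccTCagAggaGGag
Tpm2 exon 6b, chr4:43518644-43518719: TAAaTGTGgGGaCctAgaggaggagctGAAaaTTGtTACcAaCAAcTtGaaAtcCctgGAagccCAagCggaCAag
They shared 53.9% of bases, and the exon 6 pair shared 56.6% in Tpm1 and 51.3% in Tpm3.

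Tpm3 was mostly Tpm3-201, a short form of 2230 bases with exons 1b, 6a and 9d. It was at 273, 247 and 236 TPM in female pools and 267, 257 and 273 TPM in male pools, or 67.0% to 74.6% of the gene. The sexes overlapped, and female pool 2 lay within the range of the others. Tpm3-202, of 2190 bases, joins the short start 1b to exons 6b and 9a, and so puts the striated-type end on a short protein. It was at 54.3, 56.004 and 51.5 TPM in female pools and 50.8, 51.8 and 55.8 TPM in male pools. These values were even, and neither female pool 2 nor male pool 1 stood out.

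The long, slow muscle type is Tpm3-205, of 1139 bases with exons 1a, 6b and 9a. It was at 2.52, 1.47 and 1.71 TPM in female pools and 8.92, 2.59 and 1.13 TPM in male pools, from 53.4 to 539 estimated counts. Male pool 1 was 3.45-fold above the highest other pool, and female pool 2, the pool rich in fast muscle markers, was among the lowest. Tpm3-204, the long form with exons 6a and 9d, was at 3.91 TPM in male pool 1 and 0.277 TPM in male pool 2 and was listed at 0 in the other pools. Both transcripts were below the share needed to be named by rule and were singled out after their values were seen.

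Tpm3 also had 9 transcripts without coding sequence, more than any other tropomyosin gene, which summed to 52.8 to 75.1 TPM in female pools and 33.4 to 64.3 TPM in male pools. They made up 9.14% to 18.4% of the gene's TPM but 3.65% to 6.94% of its estimated counts. Male pool 3 was the lowest, and there Tpm3-212, a retained-intron transcript of 655 bases, was listed at 0 against 14.3 to 26.2 TPM in the other pools. Of the 16 Tpm3 transcripts, 8 passed the filter. The processed copy Tpm3-rs7 was at 0.139 TPM or less in every pool and Tpm3-rs2 was listed at 0, so few reads of Tpm3 were assigned to these copies.

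Tpm4 had almost a single form. Tpm4-201, of 2158 bases with exons 1b and 9d, was at 399, 341 and 332 TPM in female pools and 360.2, 359.8 and 341 TPM in male pools, or 95.9% to 97.998% of the gene. The sexes overlapped, with female pool 1 highest and female pool 3 lowest. Tpm4-203, with a shortened coding sequence, made up 1.54% to 3.71% and was highest in male pool 1, at 13.95 TPM. All 4 Tpm4 transcripts passed the filter.

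Across the 4 genes together, the short start 1b gave 706 to 818 TPM in every pool, and female pool 2, at 722 TPM, was not the lowest. The striated class, 1a to 9a, gave 52.6, 444 and 49.5 TPM in female pools and 72.8, 51.6 and 42.1 TPM in male pools. As a share of all tropomyosin TPM this was 32.8% in female pool 2, 7.00% in male pool 1 and 4.60% to 5.34% in the other 4 pools. The 4 genes summed to 1351 TPM in female pool 2 and 915 to 1080 TPM in the rest, and Tpm1 was 42.0% of the sum in female pool 2 against 18.01% to 21.2%.

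The muscle marker lists were set beside these transcripts, pool by pool. Of the 12 fast skeletal muscle markers, all passed the filter and none was listed at 0 in any pool; Myh4, a fast myosin heavy chain, was at 0.151, 295 and 3.61 TPM in female pools and 0.707, 3.92 and 3.11 TPM in male pools. Their sum was 27.8 to 3863 TPM in female pools and 75.96 to 250.0 TPM in male pools. Among the 5 pools other than female pool 2, female pool 1 was out of order, with the lowest sum, 27.8 TPM, but 34.3 TPM of Tpm1-205. Male pool 3, female pool 3, male pool 2 and male pool 1 rose in this order in both the sum and Tpm1-205. Tpm1-205 was at 26.7 TPM in male pool 3 and 37.9 TPM in male pool 1, where the sums were 75.96 and 250.0 TPM.

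Of the 8 slow skeletal muscle markers, 5 passed the filter, and Myh7 and Myl3 were listed at 0 in female pool 2. Without Atp2a2, a calcium pump that nonmuscle cells also make, their sum was 19.3, 12.8 and 10.96 TPM in female pools and 73.6, 16.7 and 14.4 TPM in male pools. Male pool 1 was the high pool for this sum, for Myh7 (5.57 TPM against at most 0.439 TPM) and for Myl2 (16.5 TPM against at most 1.52 TPM), the same pool in which Tpm3-205 was highest. Male pool 1 was also second to female pool 2 in the sum of the fast markers, 2.72-fold above the highest of the other 4 pools. In Acta1, skeletal muscle actin, it was 5.62-fold above the highest of these 4. Not every fast marker followed the sum. In Myh4, Actn3 and Pvalb, male pool 1 was above female pool 1 only, with Myh4 at 0.707 TPM against 3.11 TPM in male pool 3. In Myh1, male pool 1 was the highest of all pools. With Atp2a2, the sum of the slow markers was 112 to 156 TPM in female pools and 109.8 to 191 TPM in male pools. The part of muscle RNA in the levels of Tpm1-205, Tpm2-202 and Tpm3-205 was not tested.

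**Figure D3:**
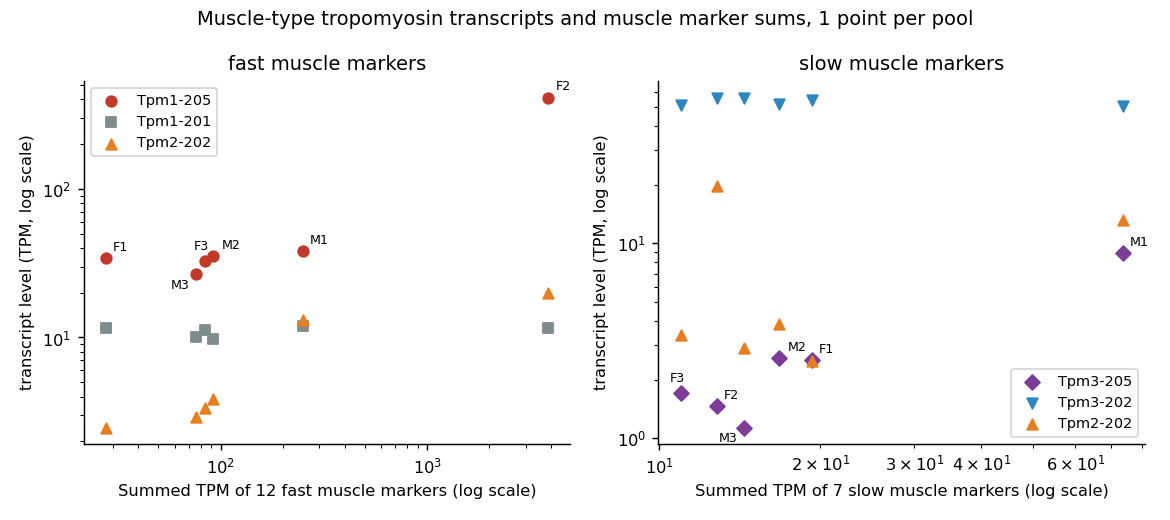
Levels of striated-type tropomyosin transcripts (TPM, log scale) against summed muscle markers (TPM, log scale), 1 point per pool and transcript, with pools named F1 to F3 (female) and M1 to M3 (male). Left, Tpm1-205 was at 411 TPM in F2, where the fast sum was 3863 TPM, while Tpm1-201 stayed between 9.75 and 12.0 TPM; right, Tpm3-205 was highest in M1, where the slow sum without Atp2a2 was 73.6 TPM, while Tpm3-202 stayed between 50.8 and 56.004 TPM, and Tpm2-202, drawn in both panels, was highest in F2 (19.8 TPM) and M1 (13.2 TPM).

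The comparison of females with males asked whether sex changes tropomyosin levels or isoform choice in sham-operated nerve. No tropomyosin gene passed the edgeR quasi-likelihood test at an adjusted p of 0.1: 0 of 4, and 0 of 4 at an unadjusted p under 0.05, while DESeq2 also called 0 of 4. Over all 16310 genes tested, edgeR called 0.0613% and DESeq2 0.975%. Tpm1 averaged 326 ± 210 TPM (SD, n = 3) in females and 187 ± 20.4 TPM in males, with a log2 fold change of 0.70 ± 0.38 (SE, edgeR adjusted p = 0.84). Its normalized counts did not overlap between the sexes, at 203 to 492 CPM (counts scaled to library size) in female pools and 171 to 199.9 CPM in male pools, a separation that 11.2% of all genes tested showed, though on the TPM scale female pool 3 lay below male pool 1. Without female pool 2 the log2 fold change of Tpm1 was 0.16 (edgeR adjusted p = 1).

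Tpm2 averaged 53.5 ± 13.8 TPM in females and 44.4 ± 14.2 TPM in males (log2 0.33 ± 0.33, edgeR adjusted p = 0.90), and without female pool 2 its log2 fold change was 0.03. Tpm3 averaged 372 ± 32.0 and 379 ± 16.4 TPM (log2 -0.06 ± 0.07, edgeR adjusted p = 0.91). Tpm4 averaged 368 ± 39.8 and 365 ± 13.8 TPM (log2 -0.01 ± 0.08, edgeR adjusted p = 0.99). For the 2 abundant cytoskeletal genes the sexes differed by less than the spread between pools.

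At the transcript level, 27 of the 47 passed the filter and edgeR called 0 of these 27 at an adjusted p of 0.1, with 1 at an unadjusted p under 0.05. DESeq2 called 0 and gave no adjusted p for Tpm1-205. Of all 41480 transcripts tested, edgeR called 0.0289% and DESeq2 0.499%, and the share at an unadjusted p under 0.05 was not counted. The log2 fold changes of the 27 ran from -1.14 to 2.27, with 19 higher and 8 lower in females and a median of 0.11, against a median of 0.01 over all transcripts tested. The largest was Tpm1-205, at 2.27 ± 1.13 (SE, edgeR adjusted p = 0.997), which was 0.01 without female pool 2. The transcript past the unadjusted threshold was Tpm1-216 (log2 0.47 ± 0.19, edgeR adjusted p = 0.997), higher in all female pools than in any male pool. Tpm1-216 and Tpm4-202 were the 2 of 27 whose normalized counts did not overlap between the sexes, beside 10.1% of all transcripts. Tpm4-202, without coding sequence, was at 0.625 to 1.49 TPM in female pools and 0.470 to 0.608 TPM in male pools, with 33.5 to 85.4 estimated counts.

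**Figure D4:**
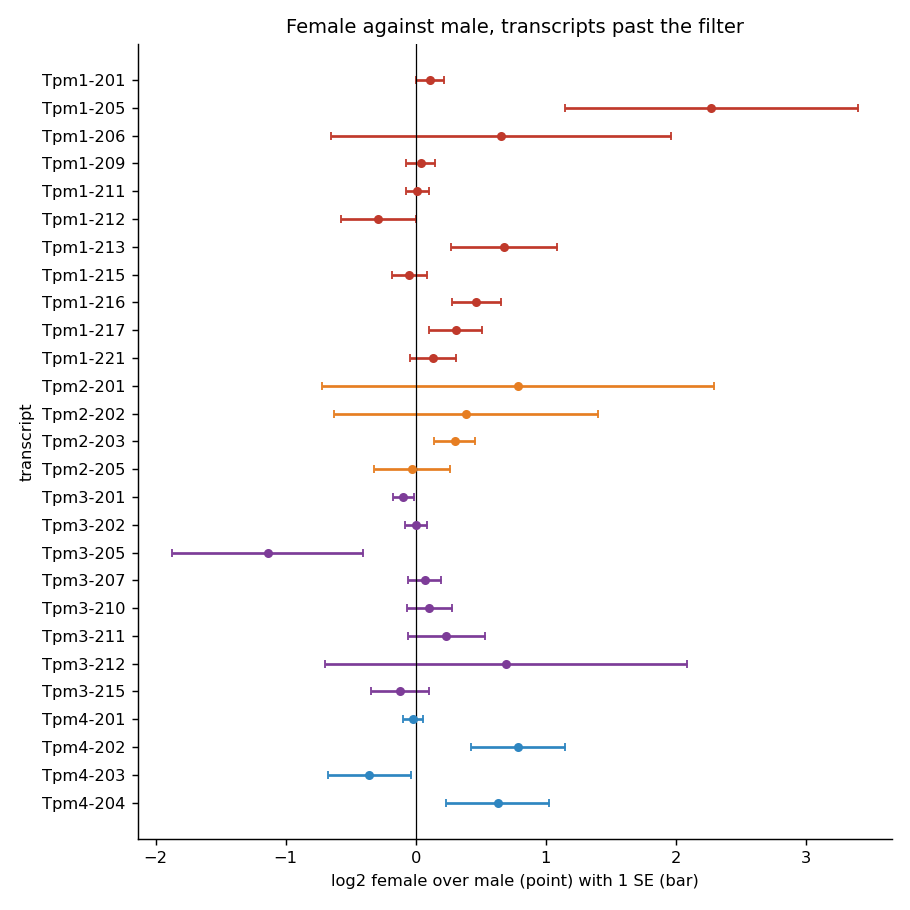
Log2 fold change of females over males (points) with 1 SE (bars) for the 27 tropomyosin transcripts that passed the filter, coloured by gene. Tpm1-205 was at 2.27 and Tpm3-205 at -1.14, both with long bars, while Tpm1-211, Tpm3-201, Tpm3-202 and Tpm4-201 lay within 0.10 of 0.

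Isoform use, the change of a transcript against that of its gene, was tested with diffSpliceDGE in edgeR. It called 0 of the 27 transcripts at an adjusted p of 0.1, with 1 at an unadjusted p under 0.05, while limma voom called 0 with 2 at an unadjusted p under 0.05. Of all 35025 transcripts tested for use, edgeR called 0.114% at that adjusted p. The share of all transcripts at the unadjusted threshold was not counted. Tpm1-205 was the transcript with the smallest p, with a use log2 of 1.57 in females against males (edgeR adjusted p = 0.33). This value rested on female pool 2: without that pool it was -0.14 (edgeR adjusted p = 1), and without female pool 1 or female pool 3 it was 1.85 and 1.83 and passed the threshold (edgeR adjusted p = 0.054 and 0.042). The other 26 transcripts had use log2 values from -1.07 to 0.81.

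Shares of the transcript classes were compared by an exact permutation test over pools, in which 3 against 3 allows no p below 0.1. The 1a to 9a class was 39.4% ± 30.3 (SD, n = 3) of Tpm1 in females and 23.6% ± 0.818 in males (exact 2-sided p = 1), and the difference was 15.8 percentage points with female pool 2 and -1.65 without it. For Tpm2 the same class was 15.5% ± 11.5 in females and 14.4% ± 7.42 in males (exact p = 1), and the difference of 1.07 percentage points turned to -5.54 without female pool 2, -1.04 without male pool 2 and -1.11 without male pool 3. For Tpm3 the class was 0.506% ± 0.110 in females and 1.08% ± 1.02 in males (exact p = 0.6), and the difference turned from -0.575 to 0.0063 percentage points without male pool 1. Of the 24 classes tested, 1 reached the smallest p, the Tpm4 transcripts without coding sequence, at 0.459% to 0.685% in female pools and 0.241% to 0.394% in male pools (exact p = 0.1, adjusted over the classes 1).

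Among 19 tropomyosin partners on the thin filament, which cap, bind or regulate it, 17 were tested and edgeR called 0, with 0 at an unadjusted p under 0.05, beside 6.11% of all genes tested. DESeq2 called 0 of 13 and gave no adjusted p for the other 4, Tmod4, Tnnt3, Tnni2 and Tnnc2. The median log2 fold change of the 17 was 0.03, against 0.0016 over all genes tested, and -0.09 without female pool 2. Cnn3, a calponin, was the highest at 272 to 313 TPM. Cald1, caldesmon, which blocks myosin on nonmuscle and smooth muscle filaments, was at 115 to 156 TPM in female pools and 92.1 to 143 TPM in male pools and overlapped between the sexes. The smallest unadjusted p-values belonged to Tnnt2, cardiac troponin T, with a log2 of 0.30, and Tnnt1, slow troponin T, with a log2 of -1.21 and its highest level, 10.7 TPM, in male pool 1. Tmod3, a tropomodulin that caps filaments in nonmuscle cells, was even at 88.1 to 99.8 TPM. Tnnt3, the fast troponin T, was at 6.24, 508 and 15.5 TPM in female pools and 34.002, 13.997 and 11.6 TPM in male pools, high in female pool 2 as Tpm1-205 was.

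Of 14 actins and class II myosins, 13 were tested and edgeR called 0, with 2 at an unadjusted p under 0.05 (6.11% of all genes tested), and a median of 0.02 that was -0.28 without female pool 2. DESeq2 called 1 of 9, beside 0.975% of all genes tested, and gave no adjusted p for Acta1, Actc1, Myh1 and Myh4. The gene called by DESeq2 was Actb, cytoplasmic β-actin (log2 -0.25, edgeR adjusted p = 0.69, DESeq2 adjusted p = 0.095). Actb was at 2653 to 2874 TPM in female pools and 3224 to 3414 TPM in male pools. These did not overlap, a separation that 11.2% of all genes tested showed in normalized counts. Actg1, cytoplasmic γ-actin, was at 1295 to 1684 TPM over the 6 pools. Myh11, the smooth muscle myosin heavy chain, was low, at 5.77 to 7.36 TPM in female pools and 7.58 to 8.78 TPM in male pools (log2 -0.30, edgeR adjusted p = 0.80). Of 16 actin filament regulators edgeR called 0, with 0 at an unadjusted p under 0.05, 0 by DESeq2 and a median of 0.01, and the highest were Gsn, the filament-severing gelsolin, at 1575 to 1980.1 TPM and Pfn1, the monomer-binding profilin, at 923 to 1201 TPM. Diaph3, a formin that elongates filaments, had the next smallest p after Gsn, with a log2 of -0.28.

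Of 21 RNA-binding proteins listed as regulators of tropomyosin exon choice, 20 were tested and edgeR called 0, with 0 at an unadjusted p under 0.05 and a median of 0.01, and DESeq2 called 0 of the 19 other than Rbfox1, for which it gave no adjusted p. Ptbp1, which represses muscle exons in many cell types, was at 133 to 172 TPM in female pools and 131 to 169 TPM in male pools. Qk, an RNA-binding protein abundant in myelinating glia, was the highest, at 393 to 431 TPM in female pools and 409 to 443 TPM in male pools. Hnrnph1 followed at 348 to 416 TPM, and Rbm4, among the smallest p-values, had a log2 of 0.12. Rbfox1, which promotes muscle and neuronal exons, was at 0.419, 5.04 and 0.339 TPM in female pools and 0.515, 0.350 and 0.630 TPM in male pools, again high in female pool 2. Its log2 of 2.23 did not pass (edgeR adjusted p = 0.84).

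For the marker lists edgeR called 0 genes in each, and their counts at an unadjusted p under 0.05 stand beside 6.11% of all genes tested. Their DESeq2 calls stand beside 0.975% of all genes tested. The 12 fast muscle markers had a median log2 fold change of 3.50 with 12 higher in females, but without female pool 2 the median was -1.22 with 12 lower. Without female pool 2 and male pool 1 it was -0.78 with 11 lower. With all pools, these 12 markers had 0 at an unadjusted p under 0.05, and DESeq2 gave an adjusted p for none of them. The 5 slow muscle markers tested had a median of -0.47 with 4 lower, 0 at an unadjusted p under 0.05 and 0 by DESeq2. Their median was -0.49 without female pool 2 and -0.09 without female pool 2 and male pool 1. The 10 smooth muscle and pericyte markers had a median of -0.07, with 2 at an unadjusted p under 0.05 and 0 of 9 by DESeq2, which gave no adjusted p for Des, were led by Tagln at 205 to 358 TPM and Acta2 at 104.5 to 155 TPM, and summed to 534 to 628 TPM in female pools and 432 to 562 TPM in male pools. The 14 nerve markers had a median of -0.01, with 2 at an unadjusted p under 0.05 and 2 by DESeq2, the macrophage receptor Csf1r and the fibroblast collagen Col1a1, both lower in females. The 6 white adipocyte markers had a median of 0.65, with 1 at an unadjusted p under 0.05 and 1 by DESeq2, Lep, and summed highest in female pool 3, at 1772 TPM. The 8 blood cell markers had a median of 0.47, with 0 at an unadjusted p under 0.05 and 0 by DESeq2, and summed to 8111 to 21944 TPM, also highest in female pool 3.

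The genes most like each tropomyosin were found by Pearson correlation of log2(TPM + 1) over the 6 pools, among genes with a mean of at least 10 TPM, as a description only. For Tpm1 they included Ugp2 (r of 0.995) and Tacc2 (r of 0.990), both highest in female pool 2, with Tacc2 at 64.7 TPM there and 28.2 to 32.1 TPM elsewhere. For Tpm2 they were Tom1l2, Entpd5 and Bcor (r of 0.974 to 0.984), which were highest in female pool 2 and male pool 1. For Tpm3 they were Ripk1, P4hb and Rap2c (r of 0.981 for the first), and for Tpm4 they were Gm37917, Tsc22d2 and Ddx47 (r of 0.992 for the first). The Tpm3 and Tpm4 partners were highest in female pool 1 and male pool 1 and lowest in female pool 3. Between 83 and 200 genes reached an r of 0.9 with each member, so the order among them is not firm.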

How the data were processed

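Members and gene lists were chosen with earlier results of these data known, so no list is independent evidence. The authors made stranded poly-A libraries, trimmed reads with Trimmomatic 0.39 and quantified transcripts with Salmon (1.5.2 in the submitters' processing notes, another version in the methods) on GENCODE transcripts of GRCm39, release M27 by the names of the files. The deposited estimated counts are per transcript, need not be whole and carry no normalization. TPM, also deposited by the authors, is scaled within each pool and not corrected for composition. Coding exons are from M39 on the same build, lengths from the files. M39 lists some transcripts as longer, such as Tpm2-203 at 2130 bases against 1164, so TPM shares depend on the release.

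Transcript TPM was summed by gene and by class, a class being the first and last coding exon. Estimated counts were rounded, and features passed with 0.5 CPM or more in 3 pools or more. The sexes were compared in edgeR 4.0.16 (R 4.3.3, TMM, robust quasi-likelihood, no covariate) with Benjamini-Hochberg adjustment over all features tested and a threshold of 0.1. SE is the absolute log2 fold change divided by the square root of F. Isoform use was tested with diffSpliceDGE. DESeq2 1.42.0 and limma 3.58.1 (voom with diffSplice) were alternatives, as were RLE factors, other filters, length offsets, a threshold of 0.05, the replicate number as a block, shares of counts or of coding transcripts, and leaving out pools. DESeq2 gave no adjusted p for Tpm1-205 and for 49 of the genes tested, the 12 fast muscle markers among them; these count as neither called nor not called. Class shares were tested by exact permutation in Python 3.11.15. The scripts were tested on simulated data. The common biological coefficient of variation was 0.154 for genes and 0.335 for transcripts.

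Transcripts were named at a share of at least 5% of their gene on average or 10% in any pool. In lists, the 2 most abundant genes by mean TPM were named, and at most 2 by smallest p, with fewer for marker lists. Tpm1-206, Tpm1-207, Tpm1-209, Tpm3-204, Tpm3-205, Tpm3-212, Tpm4-202, Tpm4-203, Tmod3, Tnnt3, Ptbp1, Myh4, Myl2, Myl3 and the sign-flip test of the gene order were added after their values were seen. Same-numbered pools did not deviate together (correlations -0.18, -0.128 and -0.0971). No pairing by number was seen, though so few correlations cannot exclude it. Values of 2 genes that these rules would name are not reported here.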

Additional observations from a re-analysis of the deposited data

How the results depend on the processing

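The stricter filter left no value for Tpm3-205. Salmon divides reads among transcripts that share exons, and the error of that division is not in the files, so it was not modelled. The error bars cover 3 pools per sex. Under every alternative run, 0 tropomyosin genes and 0 transcripts were called. For isoform use the count was 0 to 1 when leaving out each pool, and the 1 was Tpm1-205, without female pool 1 or female pool 3; its use log2 ranged from -0.14 to 1.85 over these.

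Counts over all features moved as follows. For genes (10 called), DESeq2 gave 159, no filter 49, a stricter filter 4 and the replicate block 5, and leaving out each pool 4 to 9. For transcripts (12 called), DESeq2 gave 207, no filter 31, a stricter filter 0 and the replicate block 0, and leaving out each pool 0 to 48. For isoform use (40 called), a stricter filter gave 3 and leaving out each pool 66 to 112. The replicate block changed no call of a tropomyosin gene or transcript.

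Leaving out female pool 2 and male pool 1 together, and leaving out pools for the gene lists, were added after seeing the data. The first called 1 transcript and 93 for isoform use, none of them of a tropomyosin gene. It turned the female minus male difference of the 1a to 9a class to -1.28 percentage points in Tpm1, -1.26 in Tpm2 and 0.0589 in Tpm3, and that of the 1b to 9d class of Tpm4 to -0.466. It also turned log2 fold changes to 0.03 for Tpm4, 0.15 for Tpm1-215, -0.21 for Tpm2-202, -0.08 for Tpm3-202 and 0.16 for Tpm3-205, and the use of Tpm1-205 to -0.10.

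Leaving out 1 pool moved the class difference over -1.65 to 24.8 percentage points in Tpm1, -5.54 to 5.35 in Tpm2 and -0.961 to 0.0063 in Tpm3, and over -0.0866 to 0.781 for the 1b to 9d class of Tpm4. The log2 fold change ranged from -0.09 to 0.03 for Tpm4, -0.04 to 0.09 for Tpm1-211, -0.13 to 0.05 for Tpm1-215, -1.15 to 1.32 for Tpm2-202, -0.06 to 0.08 for Tpm3-202, -1.57 to 0.01 for Tpm3-205 and -0.10 to 0.01 for Tpm4-201. Values near 0 changed sign elsewhere too: Tpm4 was at 0.0019 with length offsets, Tpm1-211 at -0.0023 with no filter, and Tpm3-202 at -0.01 with DESeq2 and with RLE factors and -0.02 with no filter. For the 11 other named transcripts, use had the other sign in 24 of 121 values and passed the threshold in 0. The cause was not tested.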
